A study of Drosophila melanogaster with 2 samples.

Results

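The 10 genes of the EGF receptor pathway considered here were taken by name: the ligand genes spi and vn, the ligand protease gene rho, the receptor gene Egfr, the feedback inhibitor genes sty, aos and kek1, the ETS transcription factor genes pnt and aop, and edl, whose product binds those factors. They are 10 of the 13945 protein-coding genes on the 6 chromosome arms. Each gene was read together with 5 kb of flanking sequence on each side, and 36 of the 3380 nuclear Brinker peaks had their summit in these windows. Brinker is a DNA-binding repressor of genes that respond to Dpp, the fly BMP ligand. The chromatin came from whole Drosophila melanogaster at the end of larval life (wandering larvae of the last instar, males and females pooled, age unknown) of the brk-GFP strain, which carries brk joined at its C terminus to eGFP, and it was precipitated with an antibody against GFP. Whether the larvae also made untagged Brinker is not stated. The series has 1 group and 2 biological replicates, numbered 3 and 4, with no second genotype, stage or tissue, so no test between conditions could be made. The chromatin of all tissues was mixed, so fewer cells with binding and weaker binding per cell cannot be told apart, and the tissue in which a site was bound is not known. A peak here is an entry of the list thresholded by irreproducible discovery rate (IDR), a procedure that compares the ranks of entries between replicates. Its signal is the authors' own value on a scale that is not stated. The lowest nuclear signal in that list was 82.6, and the strongest entry of the pooled list outside it had 82.5. The list thus came close to a cut on pooled signal, and a peak need not be strong in both replicates. The files hold no read counts, so depth is unknown.

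In the EGF receptor pathway of the fly, the membrane-bound precursor of Spitz, the product of spi, is cleaved by the protease Rhomboid and activates the receptor, while the neuregulin-like ligand Vein needs no such cleavage. Signalling through Ras and MAP kinase switches on the ETS activator Pointed and removes the ETS repressor Anterior open (Yan), which share binding sites. The pathway induces its own inhibitors: secreted Argos, intracellular Sprouty and the transmembrane protein Kekkon-1. In larvae it patterns the wing and leg discs, in which Dpp and Brinker also act, and recruits photoreceptors in the eye disc.

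Printed first are the bases around the strongest summit of 5 of the genes, so that the sequence there can be read beside the values, and 1 further pnt window because it holds a Brinker site. They are from the Release 6 assembly (dm6), on the minus strand, along which all these genes are transcribed, and run 100 bp to each side of the summit. The vn window was shortened to 141 bases, which end just before the start site. Capitals mark matches, on either strand, to the Brinker site (GGCGCC or GGCGCT or GGCGTC or GGCGTT), the ETS site (CCGGAA or CAGGAA) and the GAGA factor site (GAGAG), and in vn a repeated 12-base word.
spi intron, chr2L:19571814-19572014: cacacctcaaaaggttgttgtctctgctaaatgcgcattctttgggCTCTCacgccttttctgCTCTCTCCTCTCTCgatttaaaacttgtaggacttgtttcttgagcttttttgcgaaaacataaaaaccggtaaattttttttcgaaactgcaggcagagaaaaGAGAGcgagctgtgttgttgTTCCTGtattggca
vn upstream of the start site, chr3L:5845665-5845805: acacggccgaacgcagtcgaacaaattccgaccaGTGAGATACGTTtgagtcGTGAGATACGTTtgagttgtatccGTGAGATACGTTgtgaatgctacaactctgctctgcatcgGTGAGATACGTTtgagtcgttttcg
sty downstream flank, chr3L:3397965-3398165: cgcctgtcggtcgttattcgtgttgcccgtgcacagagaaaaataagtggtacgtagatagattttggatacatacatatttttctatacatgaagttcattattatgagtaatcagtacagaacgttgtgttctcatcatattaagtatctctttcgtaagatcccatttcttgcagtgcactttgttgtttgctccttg
aos upstream of the start site, chr3L:16483707-16483907: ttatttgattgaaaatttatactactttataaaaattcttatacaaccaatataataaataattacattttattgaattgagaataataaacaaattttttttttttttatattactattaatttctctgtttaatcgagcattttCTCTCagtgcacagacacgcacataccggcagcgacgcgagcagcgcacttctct
pnt intron, chr3R:23293399-23293599: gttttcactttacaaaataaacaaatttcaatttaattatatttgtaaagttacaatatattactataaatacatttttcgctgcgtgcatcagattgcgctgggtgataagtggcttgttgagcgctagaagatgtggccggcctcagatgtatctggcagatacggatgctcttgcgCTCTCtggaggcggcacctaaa
pnt, second intronic window, chr3R:23334400-23334600: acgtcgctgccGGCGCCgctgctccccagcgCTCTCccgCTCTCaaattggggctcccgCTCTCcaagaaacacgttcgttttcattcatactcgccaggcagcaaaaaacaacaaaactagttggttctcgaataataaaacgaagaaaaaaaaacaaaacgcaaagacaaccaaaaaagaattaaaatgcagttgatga

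Brinker peaks lay at 8 of the 10 genes. Egfr and aop had 7 each, sty 6, pnt 5, spi 4, edl and aos 3 each and vn 1, and kek1 and rho had none. Over all protein-coding genes, 26.9% had a summit by the same rule. The 10 genes were chosen with earlier results of these data known, so the comparison is descriptive and cannot establish an enrichment. Long genes have more room for a summit, and the pathway genes are long, with a median length of 17.8 kb against 2.17 kb for all protein-coding genes. With all genes sorted by length into 5 classes of equal number, the 7 pathway genes in the longest class (at least 6.46 kb) all had a summit, where 47.0% of that class did. Of the 3 in the next class, edl, kek1 and rho, edl had a summit, and the share for that class was 26.5%. Counts as high as those of Egfr and aop were rare, since 70 genes (0.502%) had 7 or more. The share with 6 or more was 0.753%, with 5 or more 1.33%, with 4 or more 2.69% and with 3 or more 6.00%. These shares are over genes of all lengths and were not computed by length class. Only 496 protein-coding genes were at least as long as Egfr, and 913 at least as long as aop.

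**Figure D1:**
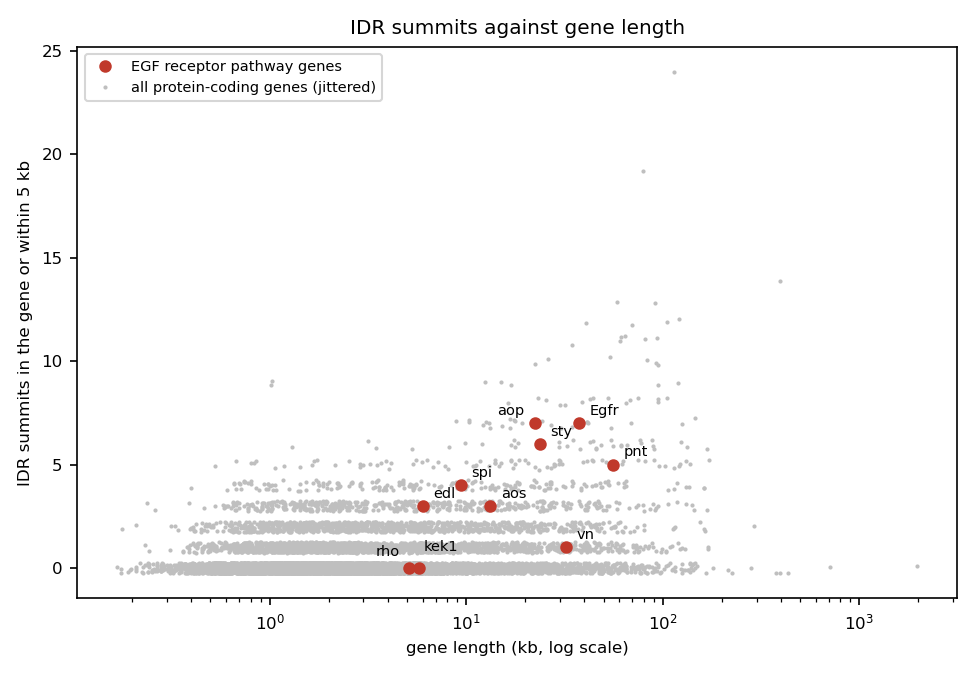
Number of IDR summits in the gene or within 5 kb (vertical) against gene length in kb on a log scale (horizontal), with each of the 10 pathway genes as a large labelled point and all 13945 protein-coding genes as small points jittered vertically. Egfr and aop stand at 7 summits, while vn, at 32.3 kb, has 1 and kek1 and rho, at 5.79 and 5.13 kb, have 0.

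The density of summits in the 10 windows, 311 kb in all, was 1.16 per 10 kb, against 0.252 per 10 kb over the 6 arms and 0.309 per 10 kb over all protein-coding gene windows together. It was highest at aop (2.17 per 10 kb), spi (2.06) and edl (1.87) and lowest, among the genes with a peak, at vn (0.236). The 36 peaks form 32 separate places, because 8 of them overlap in pairs at Egfr, aop, pnt and spi. Such overlaps held 9.44% of all nuclear peaks. Individual peaks were of middling strength: the median signal was 116, with a range of 87.0 to 356, against a median of 119 for all nuclear peaks, and the strongest of edl, Egfr and aop ranked 147, 296 and 328 of 3380. For 22 of the 36 summits no other protein-coding gene lay within 5 kb. The summit lay inside the gene itself for 29, and the nearest transcription start site belonged to the gene for 26. The windows were built on these long genes, and the matching shares over other gene windows were not computed.

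Among the ligand genes, spi, at chr2L:19567900-19577315, held 4 peaks in the middle of the gene, and vn held 1 weak peak at its start. The spi peaks clustered around an internal start site of shorter spi transcripts, between 4417 and 6441 bp from the start of the longest transcript. The strongest, at chr2L:19571706-19572121, lay 696 bp from that internal start, with a signal of 225 in the pooled list, 125 in replicate 3 and 95.3 in replicate 4. Its printed window has 6 GAGA factor matches, the most of any window at these genes. The second, at chr2L:19572690-19573105, lay 288 bp from the internal start, and its signals were 152 pooled, 101 in replicate 3 and 55.4 in replicate 4. The third, 610 bp from the start of the microRNA gene mir-2b-2 inside spi, had 110 pooled, 44.0 in replicate 3 and 62.0 in replicate 4. The fourth overlaps the strongest, and its signals were 103 pooled, 65.2 in replicate 3 and 11.3 in replicate 4, although the entry of 95.3 in replicate 4 also overlapped it. Replicate 3 was thus the higher at 3 of the 4 spi peaks, and the size of the gap at the fourth depends on which entry is matched.

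The vn peak, at chr3L:5845497-5845912, was centred 41 bp upstream of the vn start site and had a signal of 90.3 pooled, 50.8 in replicate 3 and 36.9 in replicate 4. This is close to the lowest nuclear signal in the list, 82.6, and no other protein-coding gene lay within 5 kb. The rest of vn, 32.3 kb long at chr3L:5813338-5845664, held no IDR peak. Of the 10 weaker pooled entries in the vn window 8 overlapped an entry of both replicates, a share not computed for all weaker entries. The strongest, in an intron 11228 bp from the start, had 72.4 pooled and was higher in replicate 4 than in replicate 3. In the printed vn sequence the word gtgagatacgtt occurs 4 times without overlap. Of all 3380 summit windows of the full width, 1 (0.0296%), that of vn, held a 12-base word with all 4 letters 3 or more times on the reference strand. This search was added after the vn sequence had been seen. Whether the repeat bears on the vn signal was not tested.

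The receptor gene Egfr, 37.6 kb long at chr2R:21522420-21559977, carried 7 peaks from 3283 bp before its start to 29254 bp after it. The strongest, at chr2R:21551421-21551563 in an intron, lay 4820 bp from the nearest Egfr start site, with a signal of 272 pooled, 123 in replicate 3 and 149 in replicate 4. A neighbouring peak, whose interval overlaps it, had 108 pooled, 84.9 in replicate 3 and 36.5 in replicate 4. At these adjoining summits replicate 4 was the higher at the first and replicate 3 at the second. The upstream Egfr promoter had its own peak, 60 bp inside the gene, with 163 pooled, 76.2 in replicate 3 and 88.9 in replicate 4. In an intron 1606 bp from the start, the values were 111 pooled, 51.7 in replicate 3 and 64.4 in replicate 4. Deep intronic peaks stood 13054 and 20225 bp from the start, nearest to the start sites of CG30286 and CG30283, both inside the span of Egfr. The first had 142 pooled, 82.7 in replicate 3 and 60.0 in replicate 4, and the second 188 pooled, 97.8 in replicate 3 and 93.3 in replicate 4. The peak before the gene, 12 bp from the start of CG10494, was the weakest of the 7 (89.2 pooled, 66.6 in replicate 3 and 28.9 in replicate 4).

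Of the feedback inhibitor genes, sty had 6 peaks, aos 3 and kek1 none. The gene sty, which encodes Sprouty, spans chr3L:3401153-3424935. Its strongest peak, at chr3L:3397857-3398272, lay beyond the end of the gene, 26870 bp from its start, with 178 pooled, 81.3 in replicate 3 and 94.1 in replicate 4. Further peaks on this side lay 25494 bp from the start (114 pooled, 78.8 in replicate 3 and 35.8 in replicate 4) and 28656 bp from it (90.6, 49.3 and 38.4 in the same order). For these 3 peaks the nearest start site was that of lncRNA:CR45737, 2191 to 5353 bp away, and with windows of 1 kb in place of 5 kb sty kept 3 peaks. Those 3 lay within the gene. The intronic ones had 139 pooled, 85.2 in replicate 3 and 59.1 in replicate 4 at 2620 bp from an internal start site, and 104 pooled, 65.9 in replicate 3 and 30.2 in replicate 4 at 1633 bp from the upstream start. The last, in a 5' UTR 559 bp from the internal start, had 98.3 pooled, 13.1 in replicate 3 and 80.7 in replicate 4, although a stronger entry of replicate 3 (27.3) also overlapped it. By either match it was the peak at which replicate 4 most exceeded replicate 3 among those of the pathway genes. An intronic sty entry with a pooled signal of 81.9 fell just short of the IDR list, whose lowest nuclear signal was 82.6, and its values were 14.2 in replicate 3 and 65.1 in replicate 4.

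The gene aos, which encodes the secreted inhibitor Argos, lies at chr3L:16470386-16483650 within CG33158 on the opposite strand, and all its summits are in an intron of CG33158, so that they cannot be given to aos alone. The peak at the aos start, at chr3L:16483599-16484014, was centred 157 bp upstream and had 119 pooled, 71.3 in replicate 3 and 45.9 in replicate 4. The 2 intronic peaks lay 3101 and 6770 bp into the gene. At the first the signals were 114 pooled, 51.5 in replicate 3 and 59.0 in replicate 4, and at the second 103 pooled, 32.4 in replicate 3 and 76.3 in replicate 4. The 3 pooled values were close together, whereas the replicates ordered the peaks in opposite ways.

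The gene kek1 (chr2L:12817000-12822787) had no IDR peak. Its strongest pooled entry, 1109 bp upstream, had a signal of 63.6 and rank 5275 of 29999. This was well below the lowest nuclear signal in the IDR list, 82.6. Among as many of the strongest entries as the IDR list holds, kek1 had 1 in replicate 3 (49.1, rank 3393) and 1 in replicate 4 (48.1, rank 2683). Their summits were 270 bp and 17 bp from the pooled one. Both also overlapped a second pooled entry (46.2), 1380 bp upstream, with summits 1 bp and 288 bp from its own. In those lists of single replicates, 9 of the 10 genes had an entry, where 31.7% of all protein-coding genes had one in replicate 3 and 26.9% in replicate 4. For rho (chr3L:1463811-1468944), the gene without any, the strongest pooled entry lay in an intron 766 bp from its start, with 54.6 pooled (rank 6726), 41.6 in replicate 3 and 14.1 in replicate 4. All 10 genes had at least 1 entry in the pooled list, which includes background, as did 57.3% of all protein-coding genes.

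**Figure D2:**
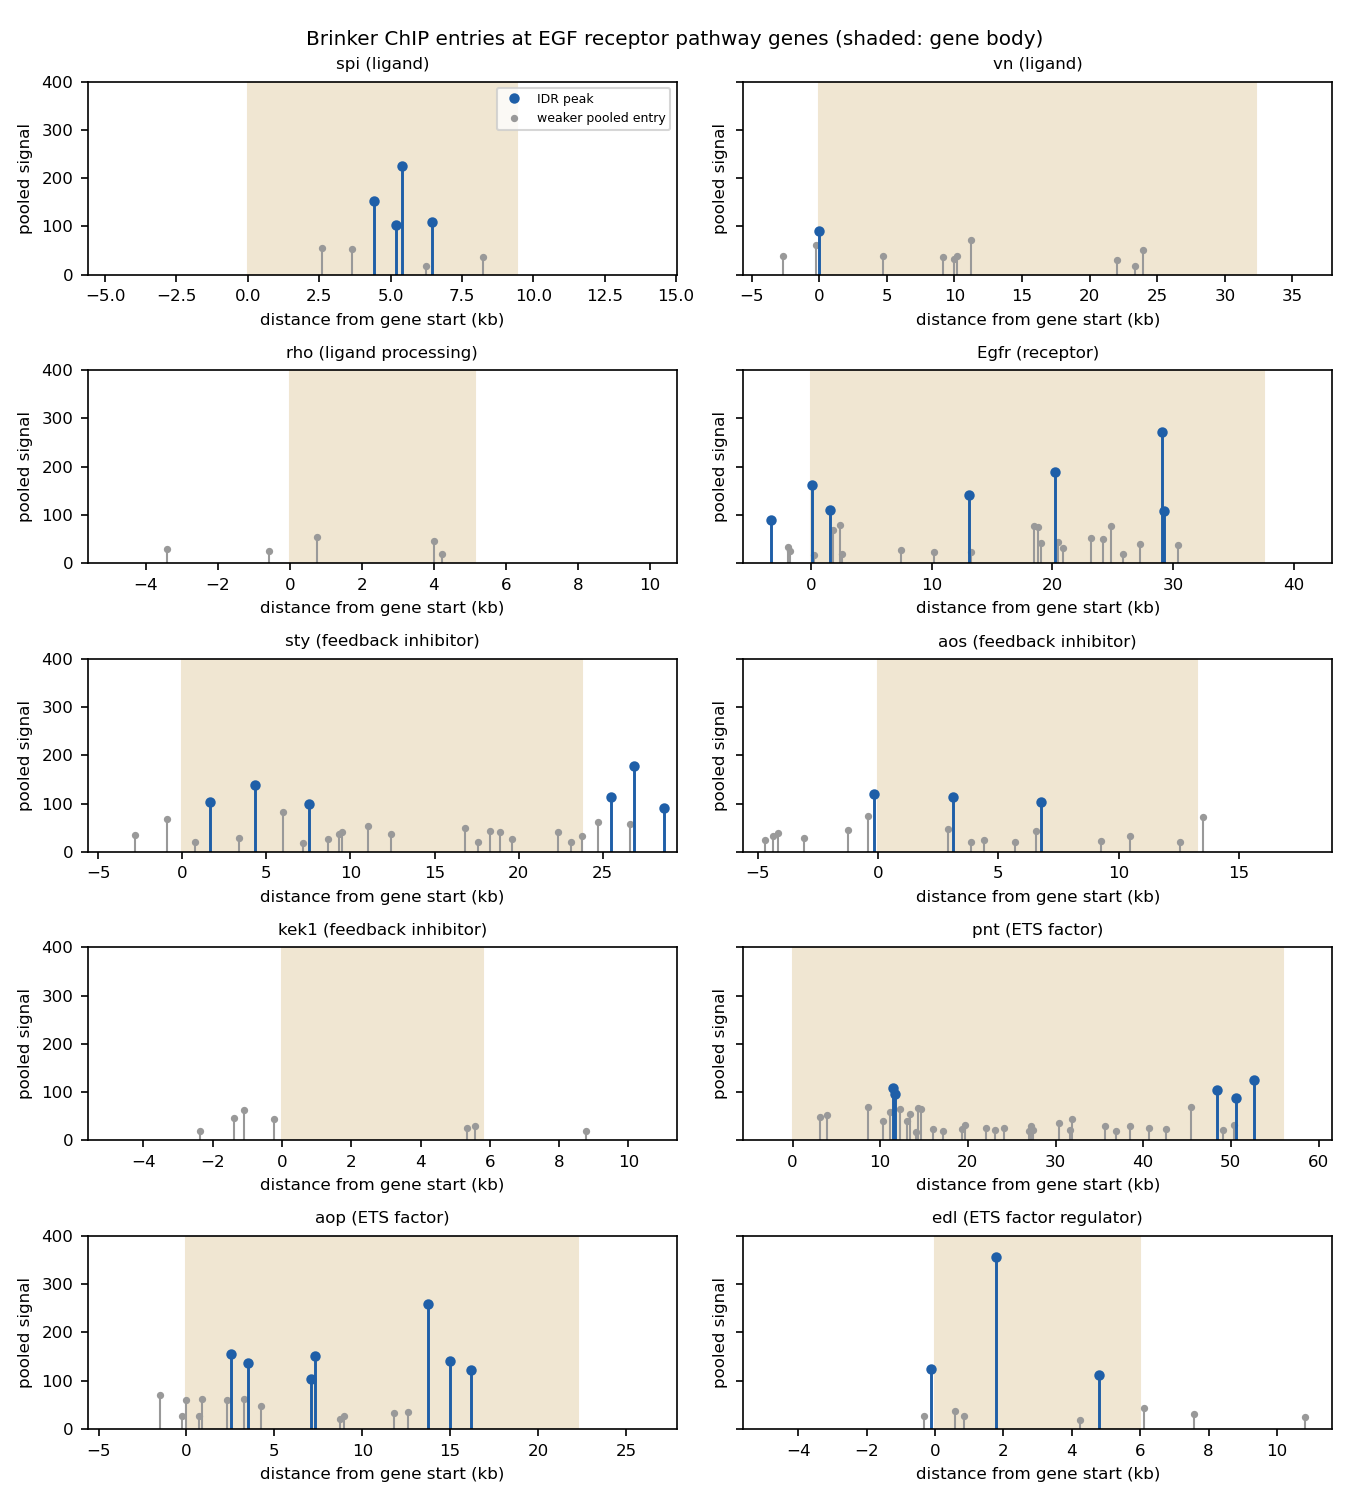
Signal in the pooled list (vertical) against distance in kb from the start of the gene in the direction of transcription (horizontal) for the 10 genes, with IDR peaks as large points, weaker pooled entries as small points and the gene body shaded. The tallest peaks of edl (356), Egfr (272), aop (259) and spi (225) lie inside the gene, while kek1 and rho hold only weaker entries.

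The ETS genes held 12 peaks and edl 3, all within the genes except 1 at the edl start. The repressor gene aop (chr2L:2156484-2178754) had its 7 peaks in introns, more than 1000 bp from any start site. The strongest lay upstream of an internal start site, with 259 pooled, 118 in replicate 3 and 150 in replicate 4. Near the start of the gene, peaks at 2523 and 3474 bp had 156 and 137 pooled, 80.2 and 78.1 in replicate 3, and 76.8 and 47.2 in replicate 4. An overlapping pair 7298 and 7081 bp from the start had 151 and 103 pooled, 91.4 and 30.8 in replicate 3, and 74.4 in replicate 4 for both, from 1 shared entry. The remaining peaks lay 2232 and 1060 bp upstream of the internal start. The first had 142 pooled, 71.4 in replicate 3 and 18.4 in replicate 4, although a stronger entry of replicate 4 (82.9), with its summit farther off, also overlapped it. The second had 123 pooled and 51.1 in replicate 3 and no overlapping entry in replicate 4, the only peak of the 36 without one.

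The activator gene pnt, the longest of the 10 at 55.9 kb (chr3R:23290231-23346167), had 5 weaker peaks in 2 clusters. Near an internal start site lay the strongest, at chr3R:23293291-23293706 and 1739 bp from that start, with 126 pooled, 35.9 in replicate 3 and 88.0 in replicate 4. The others there lay 2502 bp from it (104 pooled, 45.0 in replicate 3 and 55.9 in replicate 4) and 364 bp from it (87.0, 52.6 and 34.6 in the same order). An overlapping pair lay 11415 and 11667 bp from the upstream start, nearest to lncRNA:CR46090, with 109 and 96.1 pooled, 68.3 and 71.1 in replicate 3, and 56.4 and 34.2 in replicate 4. The weaker of this pair holds the only Brinker match within 100 bp of a pnt summit, in the second pnt window printed above. The upstream pnt start itself had no IDR peak, and the summit nearest to it was the one at 11415 bp.

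The gene edl (chr2R:18667527-18673536), whose product is a SAM-domain protein that binds Yan and Pointed, had the strongest peak of the pathway genes. At chr2R:18671614-18671860, in an intron 1788 bp from the start, the signal was 356 pooled, 170 in replicate 3 and 190 in replicate 4. A peak 117 bp upstream of the start had 125 pooled, 68.6 in replicate 3 and 57.2 in replicate 4. The third, in an intron 4791 bp from the start, had 113 pooled, 62.0 in replicate 3 and 46.3 in replicate 4. The replicates gave these 3 edl peaks the same order.

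Of the 36 peaks, 36 overlapped an entry of replicate 3 and 35 (97.2%) an entry of replicate 4, close to the 99.9% and 96.0% of all nuclear peaks. Among as many of the strongest entries as the IDR list holds, 30 were found in replicate 3, 25 in replicate 4 and 19 in both. The matching shares of all nuclear peaks were not computed, so whether these counts are unusual is not known. The IDR list was built from these replicates, so their overlap with its peaks is no independent check. At the 32 peaks with a summit within 100 bp in both replicates, replicate 3 was higher at 21 (65.6%), against 52.0% of 2948 such nuclear peaks. The median log2 of replicate 3 over replicate 4 was 0.38 (SD over peaks 0.99), against 0.03 (SD 0.62). The signals differed more than 2-fold at 11 of the 32 (34.4%), against 9.26% of the 2948. With the strongest overlapping entry of each replicate taken instead, an alternative added after seeing the data, it was 6 of 35 (17.1%) against 7.09%, with a median log2 of 0.30 at the pathway genes and 0.03 at all nuclear peaks. Replicate 3 was then higher at 60.0% of the 35, against 52.4% of 3244 nuclear peaks. Ratios assume that the lists share a scale, and the difference between the pathway genes and all peaks was not tested. The values at the strongest peaks of edl, Egfr, aop and spi differed less than 2-fold by either match. By nearest summit the most uneven were weaker peaks of spi, sty and aop. By strongest overlap those of spi and aop were nearly even, and the 6 over 2-fold were 3 at sty and 1 each at Egfr, aos and pnt.

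**Figure D3:**
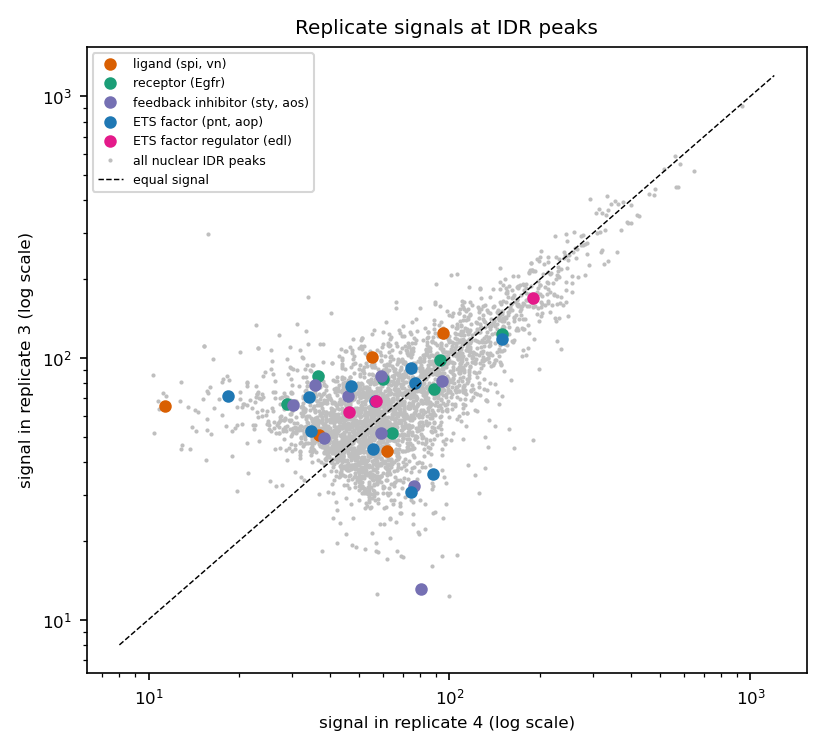
Signal in replicate 3 (vertical) against replicate 4 (horizontal), both on log scales, at the IDR peaks of the pathway genes, coloured by role, and at all nuclear IDR peaks in grey, with the line of equal signal. Each peak is set to the overlapping entry with the nearest summit, and a weak sty peak (13.1 in replicate 3 and 80.7 in replicate 4) stands far below the line.

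By position, peaks at the pathway genes were mostly intronic. Of the 36 summits, 24 (66.7%) lay in introns and 8 (22.2%) within 500 bp of a start site, against 38.6% and 44.5% of all nuclear summits, with no test of the difference. The start sites were those of vn, edl, aos, Egfr, pnt and spi, the last with 2 peaks, and that of CG10494. A further 3 summits lay between genes, all beyond the end of sty, and 1 in the 5' UTR of sty, counted outside the start sites. The median distance to the nearest start was 1764 bp, against 690 bp for all nuclear summits. Median signal was 125 for the intronic and 111 for the start-site peaks of these genes, against 116 and 125 among all nuclear peaks. These genes are long, as given above, and the part of gene length in these shares was not tested.

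In sequence, the GAGA factor site was the commonest of the 6 motifs searched, at these summits as at all nuclear summits. GAGAG is also the shortest of the words searched. It was in 18 of the 36 windows of 100 bp to each side (50%), at 7 of the 8 genes, against 28.3% of all 3380 windows, and among intronic summits in 12 of 24 (50%) against 28.8% of 1305. An ETS match was in 5 windows (13.9%, against 7.87%), each at a different gene. The Brinker site was in 2 windows (5.56%), at pnt and at vn, there in the bases not printed, against 14.3%. The Brinker count hung on the window: within 150 bp it was 11 (30.6% against 22.5%) and within 50 bp it was 1 (2.78% against 6.51%), so the direction against all peaks turned at the widest window. The Zelda site (CAGGTAG) was in 2 windows (5.56%, against 0.621%). The DREF site (TATCGATA) and the AP-1 site (TGACTCA) were in none, against 3.08% and 2.13%. All motifs were searched on both strands, and GGCGCC is also part of sites bound by the Dpp effector Mad. Mean GC content was 37.3% at the pathway genes (SD 7.73 over 36 windows) and 35.6% at all nuclear summits (SD 7.12). A match describes the letters and does not show that a factor bound them, and adjoining windows of overlapping peaks can share bases.

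**Figure D4:**
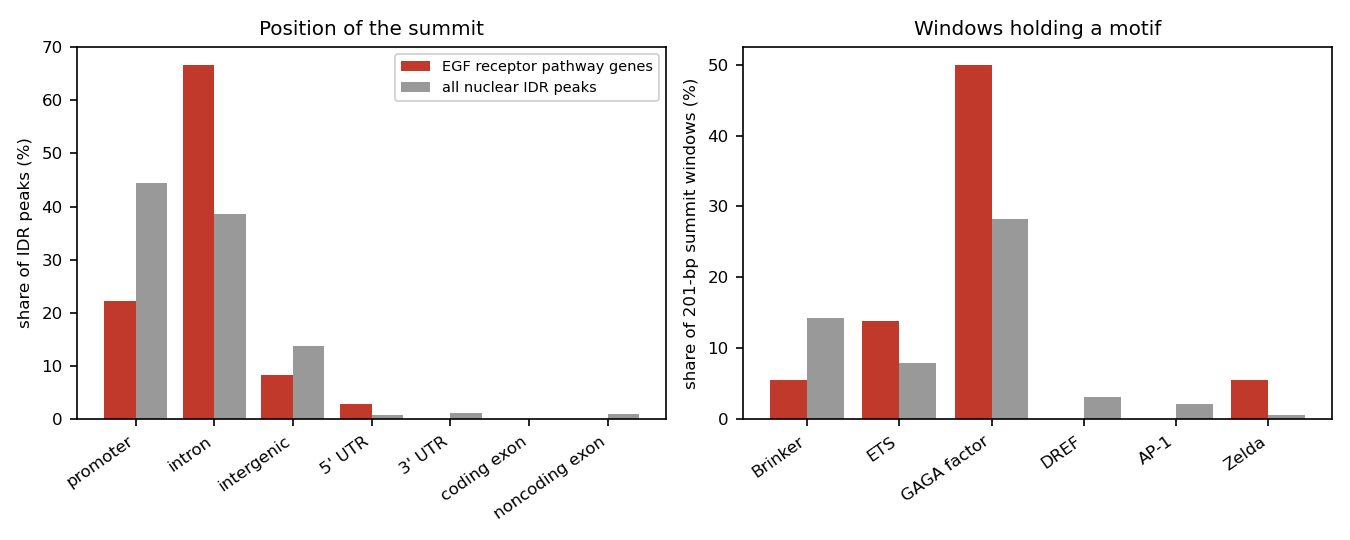
Shares in percent of IDR peaks by position of the summit (left) and of windows of 100 bp to each side of the summit that hold each motif (right), for the pathway genes (left bar of each pair) and for all nuclear IDR peaks (right bar). Introns hold 66.7% against 38.6%, and the GAGA factor site is in 18 of 36 windows at the pathway genes, against 28.3% of all.

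Of 29 other genes of the pathway, 15 (51.7%) had a summit by the same rule, against the 26.9% of all protein-coding genes. They are long too (median 7.62 kb), and they too were chosen with earlier results of these data known. Of the 16 in the longest class 9 had a summit, where 47.0% of that class did, and of the 9 in the next class 4 did, against 26.5%. Among ligand and processing genes it was 3 of 5: Krn, a second Spitz-like ligand (strongest signal 214), S, which encodes the trafficking factor Star (171), and ru, a rhomboid protease gene (146). Among signal transducers it was 5 of 11: the Ras gene Ras85D (206), the kinase gene Raf with 6 peaks (272), the scaffold gene cnk (376) and the adaptor genes dos (229) and Shc (375). Among inhibitors it was 5 of 8: ed (166), RasGAP1 (126), the MAP kinase phosphatase gene Mkp3 (197), Socs36E (383) and Nf1 (183). Of the nuclear factors it was cic, the gene of the repressor Capicua, with 5 peaks (163), and phyl (135), 2 of 5. Several of these summits are nearer to other genes: the strongest of Krn lies 62 bp from a start of Pep, that of Ras85D 129 bp from one of rump, that of Shc 174 bp from one of aay, that of cnk 335 bp from one of l(2)k01209, that of Nf1 378 bp from one of CG43116 and that of Socs36E 408 bp from one of lncRNA:CR44478. Those of ed and ru are 1187 and 7754 bp from the starts of Sr-CIII and tRNA:Glu-CTC-3-3. With summits in the gene body alone the count was 8 of 29, against 8.19% of all protein-coding genes, and with each summit given to the gene of the nearest start it was 9, against 12.8%. By these rules 7 and 8 of the 10 main pathway genes had a summit. No IDR summit was counted for grk, stet, drk, Sos, ksr, Dsor1, rl (the MAP kinase gene), csw, Cbl, fred, PTP-ER, ttk, sina or ebi.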

How the data were processed

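Chromatin immunoprecipitation and sequencing of whole larvae gave 4 dm6 narrowPeak lists used here: 1 for each replicate, 1 from the pooled alignments and the IDR list, per the deposited file notes, which also name a control alignment. The signal of each entry is the value deposited by the authors, on an unstated scale; the sources used here do not name an aligner, a caller or an IDR threshold. The dm3 lists were not used. Replicate and pooled lists hold 29999 entries each and the IDR list 3413, of which 33 are mitochondrial and were left out.

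Summits were placed on the Release 6 genome with the Ensembl release 115 annotation (BDGP 6.54), in Python 3.11.15, and counted in each gene extended by 5 kb. A replicate entry was matched by an overlap of at least 1 bp, taking the nearest summit. A promoter lies within 500 bp of a start site of any gene but a transposable element. Code was tested on simulated data. Of 39 gene names, 1 (Gap1, as RasGAP1) was matched by synonym. No test was run, because there is 1 group. All 10 genes were named. Genes and lists were chosen with earlier results of these data known. A sequence at 1 of the genes is not reported here. Alternatives were other extensions, nearest start site, stronger peaks, each replicate alone, overlap rules, promoter reach and motif window.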

Additional observations from a re-analysis of the deposited data

How the results depend on the processing

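The number of pathway genes with a summit was 6 to 9 under the alternatives, against 8. From a single replicate it was 9 without replicate 3 and 9 without replicate 4, with kek1 added in both. Their summits numbered 36, or 31 to 34 without a replicate. By other rules they were 28 (nearest start), 29 (gene bodies alone), 32 (windows of 1 kb) and 45 (windows of 10 kb). With peaks at or above the median nuclear signal they numbered 17, where 1690 of all 3380 nuclear peaks reach it. At that cut spi, Egfr, sty, edl, aop and pnt kept at least 1. The other pathway genes with a summit, 15, were 16 to 17 without a replicate, 8 in gene bodies alone and 9 by nearest start. Start-site peaks, 8 within 500 bp (22.2%, against 44.5% of all nuclear peaks), were 13 within 1000 bp and 5 within 250 bp. Beyond 1000 bp lay 63.9%, against 44.0% of all nuclear peaks, and the share of all within 250 bp was not computed. Peaks with an entry in both replicates, 35, were 19 when the entry had to be among the strongest. Windows with a Brinker site, 2, were 1 within 50 bp and 11 within 150 bp. No paired analysis was possible because there is 1 group. Depth is unknown, and replicate signals at single weak peaks differed up to several fold.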

Other observations

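Below the IDR list, the windows of the pathway genes held 133 further entries of the pooled list, and 93 of them overlapped an entry of both replicates. The matching share over all weaker pooled entries was not computed, so 93 cannot be read as particular to these genes. Of these 133, pnt had 32, the most, and sty 21, Egfr 20, aos 15, aop 12, vn 10, edl and kek1 7 each, rho 5 and spi 4. Some touch the interval of an IDR peak: 4 at Egfr, 3 at aos, 2 each at sty, pnt, aop and edl and 1 each at spi and vn. All pooled entries together, IDR peaks included, had a density of 5.43 per 10 kb in the windows, against 2.24 per 10 kb over the 6 arms.

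With windows of 10 kb in place of 5 kb, sty had 9 summits, aos 6, Egfr 8 and edl 5, while aop had 7, pnt 5 and spi 4 as before, and vn stayed at 1 and kek1 and rho at 0.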
